A study of Nicotiana tabacum with 6 samples.

Results

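Chalcone synthase (CHS) is the enzyme that opens the flavonoid route, and 4 tobacco genes annotated as CHS were followed here through imbibed seeds and young seedlings with altered amounts of seed heat stress factors. The genes were gene_5201, gene_77491, gene_39003 and gene_48293, numbered as in the deposited tables. They were chosen because each is listed as higher with A9 in seeds and in seedlings and as lower with A4a in seeds. They are 4 of 31766 gene identifiers in the deposited tables. Their directions were therefore set by the choice of genes and carry no test, and what follows describes the sizes, the levels and the differences among the 4.

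RNA-seq was performed on Nicotiana tabacum var. Xanthi. DS10:A9 seeds carried sunflower HaHSFA9 (A9) and DS10:A4a seeds carried HSFA4a (A4a), each under the seed-specific DS10 promoter, and each was compared with its own sibling nontransgenic (NT) seeds, taken after 1 day of imbibition in darkness. 35S:A9 seedlings, which express A9 in vegetative organs from the 35S promoter, were compared with sibling NT seedlings at 3 weeks. All seeds, the NT seeds included, had their own endogenous A9. Each library was a mix of 4 RNA samples prepared from pairs of sibling lines with transgenes at different sites in the genome, so a condition had 1 library in each comparison and no replicate, and no p-value is given. Each RNA sample was sequenced in 2 runs. The NT seeds had 1 library for each seed comparison, from siblings of different transgenic lines. These 2 libraries are the only pair from 1 condition. They are called here the NT seeds of the A9 comparison and of the A4a comparison, and each transgenic value is set against the NT library of its own comparison unless stated otherwise.

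Chalcone synthase joins p-coumaroyl-CoA with malonyl-CoA units to make naringenin chalcone, the precursor of flavonols, anthocyanins and condensed tannins. The steps before it (phenylalanine ammonia-lyase, cinnamate 4-hydroxylase and 4-coumarate--CoA ligase) also feed lignin and other phenylpropanoids. The steps after it (chalcone isomerase, flavanone 3-hydroxylase, flavonol synthase and others) are particular to flavonoids. In Arabidopsis, light induces CHS through the transcription factor HY5 and through MYB factors such as MYB12, and the COP1-SPA ubiquitin ligase removes HY5 in darkness. Flavonoids screen ultraviolet light in seedlings and accumulate in seed coats.

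Levels are FPKM, that is, fragments scaled to the length of the transcript and to the size of the library. The library sizes behind the FPKM values were between 11400000 and 16400000 fragments, as recovered from the steps between low FPKM values. They are the totals used for scaling and not the numbers of fragments sequenced. An FPKM of 1 in a transcript of 1 kb thus stood for 10.6 to 15.3 fragments. The 95% intervals given, called counting intervals, are exact binomial ones (Clopper-Pearson) computed on the fragments and cover counting error only. Closely related copies share reads, which RSEM divides among them by estimation, so sums over copies are firmer than the split within a pair. In pooled tissue, fewer cells that express a gene and less RNA per cell cannot be told apart. As a check of the organ labels, 11 of 11 genes described in either organ as chlorophyll a/b-binding proteins or RuBisCO small subunits in the A9up table (the genes listed as higher with A9 in both organs) had a higher FPKM in NT seedlings, at 1.23 to 671, than in the NT seeds of the A9 comparison, at 0 to 0.55. Of the seed storage, oil-body and late embryogenesis proteins, 7 were listed, all in the A4a comparison, and 2 of them reached an FPKM of 1. The amounts of the sunflower transgenes were not analysed here.

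The 4 genes fell into a pair with high levels in seeds and a pair with lower levels. The transcripts of gene_5201 and gene_77491 were listed with lengths of 1345 and 1373 bases and described as chalcone synthase 1 in seeds and as the chalcone synthases of Nicotiana alata and Nicotiana tabacum in seedlings. The transcripts of gene_39003 and gene_48293 were both listed with 1590 bases, and their closest described proteins were the chalcone synthase of Nicotiana tabacum in seedlings and, in seeds, those of Capsicum annuum for gene_39003 and of Petunia for gene_48293.

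In seeds, gene_5201 had an FPKM of 11.29 in NT seeds against 29.23 in DS10:A9 seeds, and of 15.94 in NT seeds against 4.58 in DS10:A4a seeds. For gene_77491 the FPKM was 10.98 in NT seeds against 28.54 in DS10:A9 seeds, and 15.59 in NT seeds against 4.57 in DS10:A4a seeds. These copies were almost level with each other in all 4 seed libraries, where gene_77491 made up 49.3% to 49.9% of the FPKM of the pair.

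In seedlings, gene_5201 was at an FPKM of 0.58 in NT seedlings against 15.18 in 35S:A9 seedlings, and gene_77491 at 0.85 and 20.77. The NT values rested on 10 and 15 fragments. In 35S:A9 seedlings gene_77491 held 57.8% of the pair (counting interval 53.8% to 61.7%), and in NT seedlings 59.4% (38.1% to 78.5%). The interval in 35S:A9 seedlings overlapped those in DS10:A4a seeds (42.7% to 57.2%) and in NT seeds of the A9 comparison (43.8% to 54.9%). It lay above those in DS10:A9 seeds (46.0% to 52.8%) and in NT seeds of the A4a comparison (45.6% to 53.3%). These intervals do not cover the error in dividing shared reads between the copies, so a difference in the split is not established.

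The second pair was lower in seeds. The FPKM of gene_39003 was 2.77 in NT seeds against 5.28 in DS10:A9 seeds, 4.19 in NT seeds against 1.28 in DS10:A4a seeds, and 1.51 in NT seedlings against 6.48 in 35S:A9 seedlings. That of gene_48293 was 2.60 in NT seeds against 4.55 in DS10:A9 seeds, 3.62 in NT seeds against 0.92 in DS10:A4a seeds, and 1.03 in NT seedlings against 5.52 in 35S:A9 seedlings. In NT seedlings both genes of this pair were above both genes of the first pair, whereas in the other 5 libraries they were below them.

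**Figure D1:**
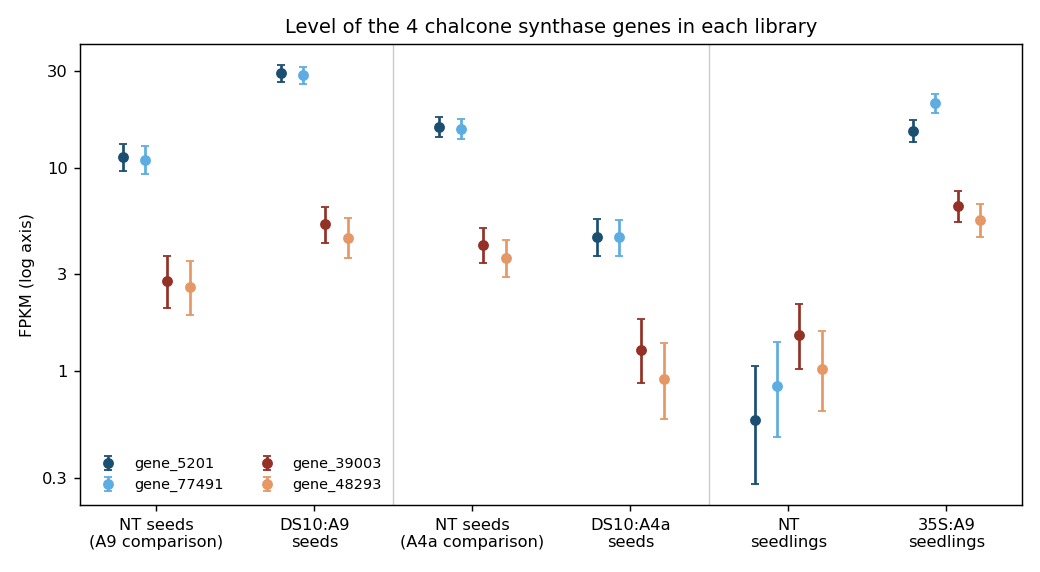
FPKM (log axis) of gene_5201, gene_77491, gene_39003 and gene_48293 in the 6 libraries, with counting intervals (95%, fragments only) as bars. In each seed library the first pair lies above the second, and in NT seedlings the order is turned, with gene_5201 lowest at 0.58 and gene_39003 highest at 1.51.

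Taken over the 4 seed libraries, every one of the 4 genes had the same order of levels: lowest in DS10:A4a seeds, then in NT seeds of the A9 comparison, then in NT seeds of the A4a comparison, and highest in DS10:A9 seeds. Some neighbours in this order did not differ beyond counting error. For gene_48293 the log2 ratio of the NT seeds of the A4a comparison over those of the A9 comparison was 0.48, with an interval of -0.05 to 1.03. For DS10:A9 seeds over the NT seeds of the A4a comparison the log2 ratio was 0.33 for gene_39003 (-0.08 to 0.75) and 0.33 for gene_48293 (-0.12 to 0.78). For gene_5201 and gene_77491 all neighbours differed beyond counting error.

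The summed FPKM of the 4 genes was 27.64 in NT seeds against 67.60 in DS10:A9 seeds (log2 fold 1.29, counting interval 1.13 to 1.46). It was 39.34 in NT seeds against 11.35 in DS10:A4a seeds (log2 fold -1.79, -2.00 to -1.59). The single genes lay between 0.81 and 1.38 with A9 and between -1.98 and -1.71 with A4a.

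The NT seed libraries, from siblings of different lines, give the only measure here of the spread between libraries of a condition. These differed by a log2 ratio of 0.51 for the summed CHS genes (0.34 to 0.68), with the A4a comparison higher, and each of the 4 genes showed 0.48 to 0.60. Against the NT seeds of the other comparison, the summed log2 fold was 0.78 in DS10:A9 seeds (0.65 to 0.91) and -1.28 in DS10:A4a seeds (-1.52 to -1.05). DS10:A9 seeds were therefore above both NT seed libraries and DS10:A4a seeds were below both, while the size of either fold depended on which NT library was used. The side relative to the NT library of the same comparison was set by the choice of genes. Of 115 genes listed as higher with A9 and lower with A4a that had an FPKM of at least 1 in both NT seed libraries, the median log2 ratio of the NT libraries was 0.46, close to that of the CHS genes. For 122 such genes listed as higher with both A9 and A4a the median was 0.19, and over all 237 genes it was 0.35. The 115 genes and the CHS genes were selected on the same NT values. That choice favours a higher NT level in the A4a comparison, so their NT ratio is not a neutral measure of the spread.

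Without any NT library, DS10:A9 seeds held 67.60 FPKM and DS10:A4a seeds 11.35 FPKM of summed CHS, a 5.96-fold ratio. The ratio was 6.31 for the first pair and 4.47 for the second. These are levels of separately normalized libraries from different lines.

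**Figure D2:**
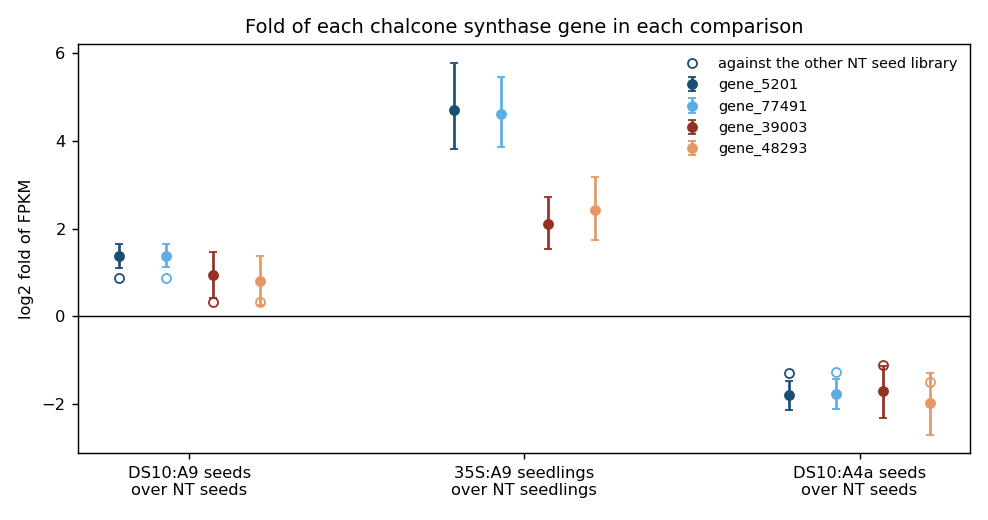
Log2 fold of FPKM of each of the 4 genes in the 3 comparisons, with counting intervals (95%) as bars. Open circles give the fold against the NT seed library of the other seed comparison, and they stay above 0 for DS10:A9 (0.33 to 0.87) and below 0 for DS10:A4a (-1.50 to -1.11).

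The folds of the pairs could not be told apart with A4a and differed with A9. The log2 fold in DS10:A4a seeds was -1.78 for gene_5201 with gene_77491 (-2.02 to -1.55) and -1.83 for gene_39003 with gene_48293 (-2.29 to -1.39), and the difference of 0.04 had an interval of -0.46 to 0.56. With A9 in seeds the first pair had the larger fold, 1.38 (1.19 to 1.56) against 0.87 (0.50 to 1.25). That difference was 0.50, with an interval of 0.08 to 0.92.

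The tables set the frame for these counts. All 4 genes had a log2 fold of -1 or less in DS10:A4a seeds, as had 17.1% of the genes listed in that comparison with an FPKM of at least 1, and 54.0% of all genes listed there were lower. A log2 fold of 1 or more was found for 2 of the 4 genes in DS10:A9 seeds and for all 4 in 35S:A9 seedlings, against 55.0% and 63.4% of the A9up genes with an FPKM of at least 1. Of all A9up genes, 27.3% were in the table of genes lower with A4a, as all 4 CHS genes were by choice. Ordered by the size of the change on log2(FPKM + 1), gene_5201, gene_77491, gene_48293 and gene_39003 were in places 21, 24, 97 and 134 among the 16011 genes lower with A4a. Among 4753 A9up genes, gene_77491, gene_5201, gene_48293 and gene_39003 were in places 27, 33, 172 and 209 in 35S:A9 seedlings. In DS10:A9 seeds the 4 genes were spread from place 111 for gene_77491, closely followed by gene_5201, to places 690 and 1022 for gene_39003 and gene_48293. On this scale genes with a low FPKM can change little, so they fill the late places. Only 5111 of the 16011 genes lower with A4a reached an FPKM of 1. Of the 4753 A9up genes, 2203 did so in seedlings and 1440 in seeds of the A9 comparison.

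The basal level differed between organs, and by pair. Summed CHS was at 27.64 FPKM in the NT seeds of the A9 comparison, 39.34 in those of the A4a comparison and 3.97 in NT seedlings, which is a log2 ratio of seeds over seedlings of 2.80 (2.45 to 3.17) or 3.31 (2.97 to 3.66). For the first pair the NT level was 15.6-fold or 22.05-fold higher in seeds, and for the second pair 2.11-fold or 3.07-fold. The difference between pairs in log2 ratio was 2.88 (2.07 to 3.71) with one NT seed library and 2.84 (2.08 to 3.63) with the other. Seeds and seedlings differ here in organ, age and light, which cannot be told apart.

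The pairs also differed in the fold between 35S:A9 and NT seedlings. Summed CHS was 12.1-fold higher in 35S:A9 than in NT seedlings (log2 fold 3.59, 3.26 to 3.95). The first pair had a log2 fold of 4.65 (4.08 to 5.29) and the second pair one of 2.24 (1.80 to 2.70), and the difference was 2.41 (1.66 to 3.19). Both contrasts share the NT seedling library, where the first pair rested on 25 fragments and the second on 52. Within a pair the folds of the copies in 35S:A9 seedlings differed by -0.10 (-1.44 to 1.18) and by 0.32 (-0.61 to 1.28), intervals wide enough to hold sizeable differences.

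The make-up of CHS transcripts moved accordingly. In the seed libraries gene_39003 and gene_48293 together gave 19.4% of the summed FPKM in NT seeds of the A9 comparison (15.9% to 23.3%), 14.5% in DS10:A9 seeds (12.6% to 16.7%), 19.9% in NT seeds of the A4a comparison (17.4% to 22.5%) and 19.4% in DS10:A4a seeds (14.9% to 24.6%). In NT seedlings they gave 64.0% (52.0% to 74.9%). In 35S:A9 seedlings their share was 25.03% (22.3% to 27.9%), nearer to the shares in NT seeds than to that in NT seedlings, yet above the share in DS10:A9 seeds beyond counting error.

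**Figure D3:**
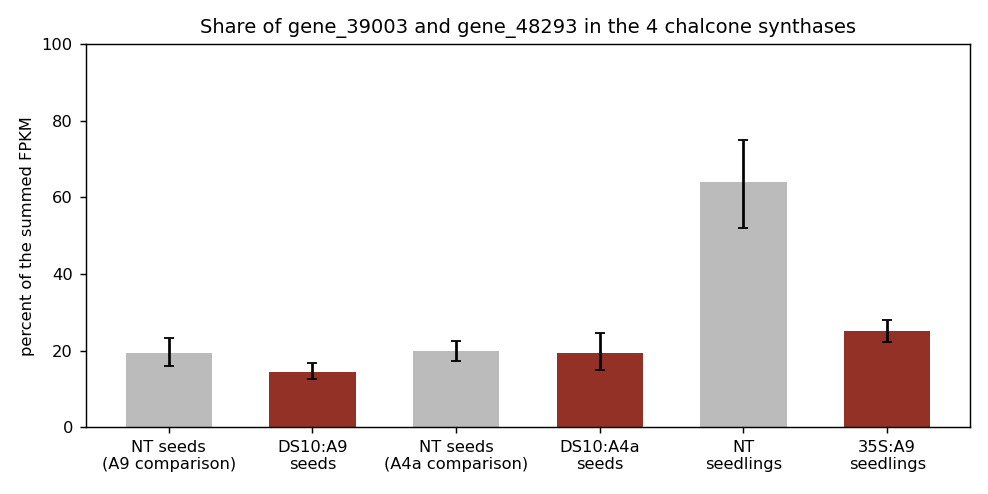
Percent of the summed FPKM of the 4 chalcone synthase genes that came from gene_39003 with gene_48293 in each library (grey bars, NT; red bars, transgenic), with counting intervals (95%). The share was 14.5% to 19.9% in the 4 seed libraries, 64.0% in NT seedlings and 25.03% in 35S:A9 seedlings.

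In 35S:A9 seedlings the summed level reached 47.95 FPKM, above both NT seed libraries, with log2 ratios of 0.79 (0.63 to 0.97) and 0.29 (0.15 to 0.42). It remained below that of DS10:A9 seeds, where the log2 ratio of seeds over seedlings was 0.50 (0.36 to 0.63). By pair the order differed. The first pair was higher in DS10:A9 seeds than in 35S:A9 seedlings, by 0.68 (0.53 to 0.83), and the second pair was higher in 35S:A9 seedlings, with a log2 ratio of -0.29 (-0.58 to -0.0028). In DS10:A4a seeds the second pair was near its level in NT seedlings, at 2.2 and 2.54 FPKM, a log2 ratio of -0.21 (-0.78 to 0.37), whereas the first pair was still 6.40-fold higher than in NT seedlings.

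Another 5 identifiers in the tables were annotated as chalcone synthase, and 4 of them have values in the A4a comparison alone. In the seed libraries with a value, none exceeded an FPKM of 0.46 or 10 fragments. In the A4a comparison their FPKM summed to 0.94 in NT seeds against 0.42 in DS10:A4a seeds, over 17 and 6 fragments. One of them, gene_29220, was listed as higher with A4a, on 2 fragments in NT seeds against 3 in DS10:A4a seeds, and the other 4 as lower. The 1 identifier of these with values in the A9 comparisons too was gene_51131, described as chalcone synthase G-like, which passed an FPKM of 1 in 35S:A9 seedlings. Its FPKM was 0.79 in NT seedlings against 1.55 in 35S:A9 seedlings (log2 fold 0.97, 0.36 to 1.61), against 0.03 and 0.08 in NT and DS10:A9 seeds, where it had 1 and 3 fragments. Between the NT libraries of the A9 comparisons its order was the opposite of that of the 4 genes, with the higher FPKM in NT seedlings. All 5 CHS identifiers in the A9up table were listed as lower with A4a, beside 27.3% of all A9up genes. For the 4 genes followed here this was set by the choice. For gene_51131 it rested on 1 fragment in NT seeds against 0 in DS10:A4a seeds.

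The genes around CHS in the route were compared as 10 lists formed by KEGG orthology or by protein description. In the A4a comparison 122 such genes were listed, 53 higher and 69 lower (56.6%, near the 54.0% over all genes of that comparison), with a median log2 fold of -0.70, against -0.56 for all genes. Restricted to an FPKM of at least 1, the count was 12 higher and 20 lower (62.5%, against 59.6% over all genes). Counts for the single steps stand beside the same 54.0%. By description alone it was 14 higher and 35 lower, since broad orthology groups also hold enzymes with other descriptions. In the A9up table, whose genes are all higher by construction, 48 were found. Of these, 23 (47.9%, beside 27.3% of all A9up genes) were in the table of genes lower with A4a. Another 13 were in that of genes higher with A4a, for which the share of all A9up genes was not computed here.

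Of the steps that supply CHS, all 6 phenylalanine ammonia-lyase (PAL) genes of the A4a comparison were lower, with a median log2 fold of -0.95. The highest, gene_65313, was at an FPKM of 6.81 in NT seeds against 4.48 in DS10:A4a seeds (log2 fold -0.60, -0.88 to -0.33). In the A9 comparisons it was at 7.58 in NT seeds against 11.4 in DS10:A9 seeds, and at 20.9 in NT seedlings against 63.6 in 35S:A9 seedlings. This PAL gene was thus higher in NT seedlings than in NT seeds, the reverse of summed CHS.

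Of 3 cinnamate 4-hydroxylase genes in the A4a comparison, 2 were lower, among them gene_33762 at 19.8 in NT seeds against 12.5 in DS10:A4a seeds (log2 fold -0.67, -0.86 to -0.48), and none was in the A9up table. The 4-coumarate--CoA ligase list was divided, with 18 higher and 15 lower with A4a and a median of 0.63. Its highest gene there, the ligase-like gene_83788, was at 1.76 in NT seeds against 3.44 in DS10:A4a seeds (0.97, 0.49 to 1.46). The highest of this list in the A9up table was gene_81659, at 5.34 in NT seedlings against 8.42 in 35S:A9 seedlings (0.66, 0.16 to 1.17) and listed at 0 in both NT seed libraries.

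Chalcone isomerase closes the ring of the CHS product. With A4a, 4 of 5 isomerase genes were lower, and both of those in the A9up table were among them. The FPKM of gene_48483, not in the A9up table, was 9.91 in NT seeds against 5.35 in DS10:A4a seeds (-0.89, -1.29 to -0.50). That of gene_25901 was 0.87 in NT seeds against 3.15 in DS10:A9 seeds, 0.45 in NT seedlings against 18.5 in 35S:A9 seedlings, and 2.18 in NT seeds against 0.30 in DS10:A4a seeds. Its log2 folds were 1.86 (0.70 to 3.19), 5.36 (4.11 to 7.0) and -2.86 (-4.83 to -1.35), each of the same sign as that of CHS.

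Flavanone 3-hydroxylase turns naringenin into a dihydroflavonol, and 1 of its genes was on the other side from CHS in DS10:A4a seeds. This gene, gene_819, was at 8.34 in NT seeds against 13.2 in DS10:A4a seeds (log2 fold 0.67, 0.40 to 0.94), while with A9 it was higher in both organs, with 5.13 in NT seeds against 11.1 in DS10:A9 seeds and 2.55 in NT seedlings against 11.8 in 35S:A9 seedlings. Over the list, 6 genes were higher and 9 lower with A4a, with a median log2 fold of -1.58, and of the 6 listed in the A9up table, 4 were lower and 1 was higher with A4a. With an FPKM of at least 1, 3 were higher and 1 was lower. The gene of the list with the highest level in the A9up table, gene_52800, is described as a 1-aminocyclopropane-1-carboxylate oxidase homolog. It was at 79.7 in NT seedlings against 131 in 35S:A9 seedlings. In the A9 seed comparison it was at 0 in NT seeds against 0.42 in DS10:A9 seeds, on 0 and 1 fragments.

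Flavonol synthase takes dihydroflavonols to flavonols, and 20 of 31 listed genes were lower with A4a, with a median log2 fold of -1.10. The highest there, gene_43221, is described as a putative inactive flavonol synthase and was at 7.24 in NT seeds against 4.91 in DS10:A4a seeds (-0.56, -0.80 to -0.32). The tobacco flavonol synthase gene_29551 was at 6.43 in NT seeds against 1.95 in DS10:A4a seeds, 4.18 in NT seeds against 7.70 in DS10:A9 seeds, and 4.92 in NT seedlings against 21.8 in 35S:A9 seedlings. Its log2 folds were -1.72 (-2.28 to -1.19), 0.88 (0.41 to 1.37) and 2.15 (1.79 to 2.51).

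Flavonoid 3'-hydroxylase and 3',5'-hydroxylase add hydroxyl groups to the B ring, and 9 of 16 listed genes were lower with A4a, a share (56.2%) near that of all genes. Among them, gene_44182 was at 3.38 in NT seeds against 1.61 in DS10:A4a seeds (-1.07, -1.59 to -0.56), and gene_44185, described as a cytochrome P450 78A5-like protein, was at 1.39 in NT seedlings against 2.14 in 35S:A9 seedlings (0.62, 0.01 to 1.25).

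On the branch to anthocyanins and tannins, 6 of 8 dihydroflavonol reductase genes, 2 of 6 leucoanthocyanidin dioxygenase genes and 4 of 12 anthocyanidin and leucoanthocyanidin reductase genes were lower with A4a. The descriptions differ between tables, and of 5 genes listed as leucoanthocyanidin dioxygenase in the A9up table, 3 were lower with A4a. The highest members of these lists were described as other enzymes. The genes gene_63670 and gene_26836 are described as tetraketide alpha-pyrone reductases, which act in pollen wall formation in Arabidopsis, and were at 2.2 and 2.09 in the NT library and at 1.36 and 1.23 in DS10:A4a seeds, with log2 folds of -0.69 (-1.51 to 0.10) and -0.76 (-1.48 to -0.07). In the A9 comparisons gene_26836 was at 3.01 in NT seeds against 5.56 in DS10:A9 seeds (0.89, 0.33 to 1.46) and at 0.15 in NT seedlings against 1.02 in 35S:A9 seedlings (2.77, 1.01 to 5.16). Described as an SRG1-like protein, gene_16230 was at 1.10 in NT seeds against 2.65 in DS10:A4a seeds (1.27, 0.53 to 2.06). Described as a pinoresinol-lariciresinol reductase, gene_76077 was at 1.74 in NT seedlings against 4.04 in 35S:A9 seedlings (1.22, 0.59 to 1.87).

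**Figure D4:**
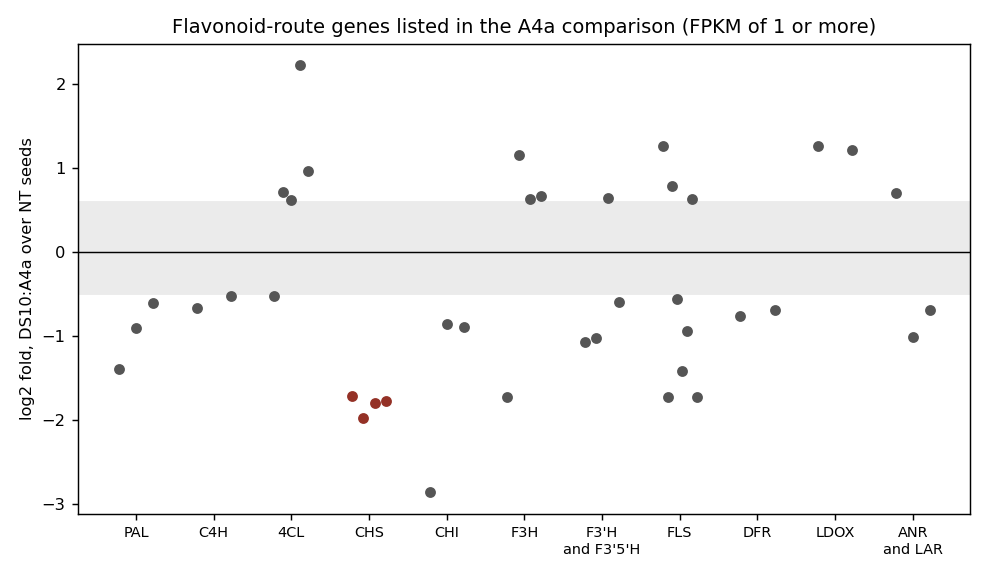
Log2 fold in DS10:A4a over NT seeds of the listed genes of each step that reached an FPKM of 1 in either library of that comparison, in the order of the route (dots, genes; red, the 4 chalcone synthases). Folds inside the grey band from -0.5 to 0.6 are not listed in the tables. The 4 chalcone synthases lie between -1.98 and -1.71, while flavanone 3-hydroxylase gene_819 is above 0 at 0.67.

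Among known regulators, HY5 and MYB12 are activators of CHS in Arabidopsis. Those with values in the A9 comparisons come from the A9up table, where every gene is higher, so their side there was set by the listing. With A4a all 3 HY5 genes were lower. Counts of regulators stand beside the 54.0% of all genes listed in that comparison that were lower, or 59.6% with an FPKM of at least 1. The FPKM of gene_78854 was 5.55 in NT seeds against 2.76 in DS10:A4a seeds (-1.01, -1.55 to -0.48), that of gene_57694 was 6.49 and 2.60 (-1.32, -1.89 to -0.77), and that of gene_57696 was 2.40 and 1.25 (-0.94, -2.21 to 0.24). With A9 in seeds gene_78854 was at 5.80 in NT seeds against 9.29 in DS10:A9 seeds (0.68, 0.20 to 1.17), and gene_57696 at 1.14 and 3.33 (1.55, 0.26 to 3.02).

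In seedlings HY5 gene_78854 was at 1.10 in NT seedlings against 1.80 in 35S:A9 seedlings (0.71, -0.28 to 1.75) and gene_57696 at 0.31 and 1.85 (2.58, 0.41 to 5.78). The MYB12-like gene_14792 was at 1.3 in NT seeds against 3.49 in DS10:A9 seeds (1.42, 0.68 to 2.22) and at 1.08 in NT seeds against 0.39 in DS10:A4a seeds (-1.47, -2.75 to -0.32). In seedlings, where the fold of CHS was largest, it was at 0.37 in NT seedlings against 0.57 in 35S:A9 seedlings, with an interval of -0.87 to 2.23 that includes 0.

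Among repressors, the MYB4-like gene and the RUP gene that reached an FPKM of 1 in the A4a comparison were lower, as HY5 was. Over all levels the MYB3, MYB4 and MYBL2 list had 2 genes higher and 4 lower with A4a. The MYB4-like gene_86634, of a family that represses phenylpropanoid genes in Arabidopsis, was at 8.98 in NT seeds against 4.61 in DS10:A4a seeds (-0.96, -1.47 to -0.47). Another, gene_28212, was at 0.50 in NT seedlings against 1.08 in 35S:A9 seedlings (1.11, -0.25 to 2.63). The feedback repressor of ultraviolet-B signalling RUP2, gene_45337, was at 1.43 in NT seeds against 0.48 in DS10:A4a seeds (-1.57, -2.56 to -0.67).

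Of the COP1 genes, gene_15927 was at 39.3 in NT seeds against 25.5 in DS10:A4a seeds (-0.62, -0.75 to -0.50). In seedlings gene_80985 was at 3.30 in NT seedlings against 5.04 in 35S:A9 seedlings (0.61, 0.33 to 0.90). For gene_12809 the FPKM was 0.56 in NT seeds against 1.65 in DS10:A4a seeds, on 1 and 3 fragments, with an interval of -2.08 to 7.27. The SPA genes gene_50661 and gene_50657 were lower with A4a, with log2 folds of -0.68 (-0.88 to -0.48) and -0.78 (-1.16 to -0.40), whereas for gene_35510 the interval was -1.14 to 0.09. In the A9up table, SPA gene_17 was at 1.29 in NT seeds against 2.55 in DS10:A9 seeds (0.98, 0.23 to 1.77). Over all levels, COP1 had 1 listed gene higher and 1 lower with A4a, and SPA had 1 higher and 4 lower.

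The ultraviolet-B receptor UVR8 had 6 listed genes higher and 4 lower with A4a. The most abundant, gene_24210, was at 32.2 in NT seeds against 20.6 in DS10:A4a seeds (-0.65, -0.79 to -0.51), and gene_33154 had a log2 fold of -0.62 (-1.38 to 0.12). On the other side, gene_64458, gene_33050 and gene_33049 had log2 folds of 1.93 (1.57 to 2.31), 1.2 (0.56 to 1.87) and 1.36 (0.70 to 2.06). Described as UVR8 in seeds and as a chromosome condensation regulator in seedlings, gene_32674 had intervals that include 0 in all 3 comparisons. The cryptochromes with an FPKM of at least 1 were of the DASH type, with gene_55270 at 9.48 in NT seedlings against 21.4 in 35S:A9 seedlings (1.17, 0.94 to 1.41) and gene_43370 at 6.26 and 11.5 (0.88, 0.51 to 1.26). The listed genes of the MYB75, MYB90 and AN2 group and of the TT8, GL3 and AN1 group, which drive anthocyanin synthesis, were all under an FPKM of 1, and no TTG1 gene was listed.

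The genes with the pattern most like that of the summed CHS genes were sought among 700 other genes with a value in all 6 libraries and a mean FPKM of at least 1. Likeness was Pearson's r of log2(FPKM + 1) over the 6 libraries, given as a description, since these points are 3 pairs of libraries and the genes were listed on the same libraries. The flavonol synthase gene_8049 came first, at r = 0.99. It was at an FPKM of 4.13 in NT seeds against 7.91 in DS10:A9 seeds, 0.30 in NT seedlings against 5.16 in 35S:A9 seedlings, and 5.88 in NT seeds against 1.78 in DS10:A4a seeds.

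Next were the flavonoid 3-O-glucosyltransferase genes gene_53094 and gene_53260, both at r = 0.98, whose enzyme type attaches glucose to flavonoids. For gene_53094 the FPKM was 2.38 in NT seeds against 5.15 in DS10:A9 seeds, 0.05 in NT seedlings against 3.02 in 35S:A9 seedlings, and 2.72 in NT seeds against 1.25 in DS10:A4a seeds. That of gene_53260 was 3.28 in NT seeds against 5.71 in DS10:A9 seeds and 3.75 in NT seeds against 1.67 in DS10:A4a seeds, and it was listed at 0 in NT seedlings against 4.5 in 35S:A9 seedlings. Like summed CHS, these 3 genes were lowest in NT seedlings, whereas gene_39003 and gene_48293 taken singly were lowest in DS10:A4a seeds.

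The other 2 of the 5 were genes for general transcription factors, gene_86653 for a subunit of TFIIIB and gene_48961 for subunit 1 of TFIID, both at r = 0.95. For gene_48961 the counting interval of the log2 fold included 0 in each comparison, among them -3.06 to 1.14 in DS10:A4a seeds. For gene_86653 it included 0 in DS10:A4a seeds, at -1.95 to 0.19.

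**Figure D5:**
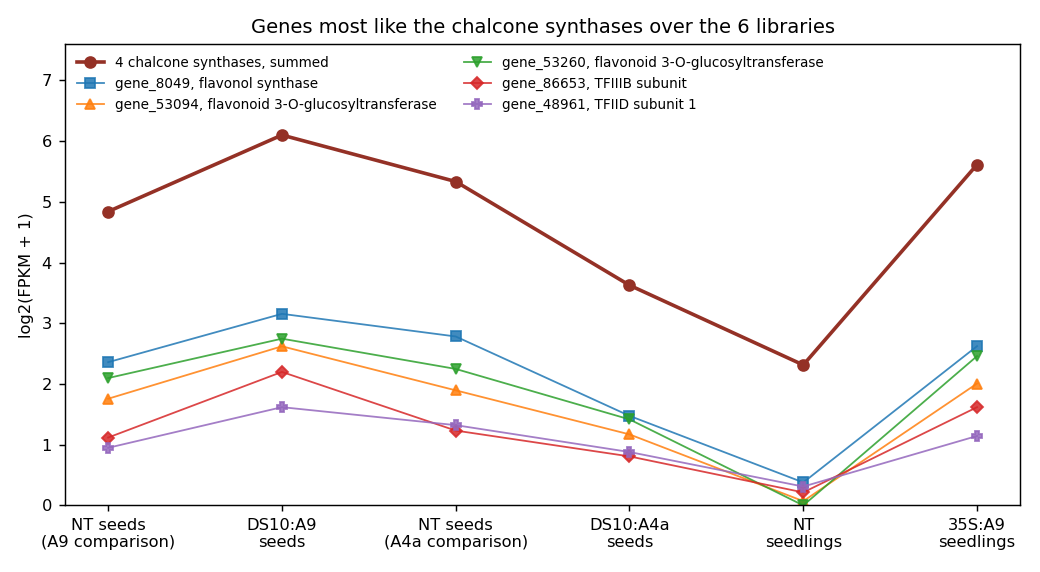
log2(FPKM + 1) of the 4 chalcone synthase genes, summed, and of the 5 described genes with the most similar pattern, in the 6 libraries (points, libraries; lines join the points of a gene and stand for no order). All are lowest in NT seedlings and highest in DS10:A9 seeds, and the flavonol synthase gene_8049 lies next to the summed chalcone synthases in pattern, at r = 0.99.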

How the data were processed

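RNA from imbibed seeds (DS10:A9, DS10:A4a and NT) and from seedlings (35S:A9 and NT) was sequenced by the submitters as pooled libraries with paired reads of 100 bases. The authors made the deposited FPKM values with RSEM (1.2.12) on Bowtie2 (2.2.5) alignments, after HISAT (0.1.6) and StringTie (1.04), as the submitters' processing notes name them, from a tobacco transcriptome extended with their own assembled transcripts. The deposited tables also give transcript lengths, used here, and the authors' log2 folds and p-values, which were not used. They list only genes past the authors' log2 fold of about 0.6 (higher) or -0.5 (lower), so genes that did not pass are unknown and no enrichment was tested. A recomputed fold can fall just short of this, as that of gene_65313 in DS10:A9 seeds did at 0.594. No expression column was left unused, and 2 A9up identifiers with a row in 1 organ only were left out. The labels do not say which NT seed sample belongs to which comparison, so each NT seed column is named by the table it stands in. The rows of seeds and seedlings in the A9up table were taken from the order in its heading.

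Log2 folds were recomputed with Python 3.11.15, NumPy 2.4.6, SciPy 1.17.1 and pandas 2.3.3, and figures were drawn with matplotlib 3.10.9. An FPKM written as 0.01 was read as 0. Library depth was fitted to the steps of low FPKM values times length (less 65 bases in seeds and 45 in seedlings); 87.6% to 96.0% of low values were then within 0.15 of a whole fragment. The fit, the intervals and the pattern ranking were tested on simulated data. Differences between log2 folds carry exact conditional odds ratio intervals (95%) from the fragments. Libraries were normalized separately by the authors, so levels set across comparisons rest on that scaling.

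The 4 genes, the 10 pathway lists, the regulators and all settings were chosen with earlier results of these data known. Named genes were the 4 members, other CHS genes and regulators with an FPKM of 1 or more, the gene with the highest mean FPKM of each list in the A4a tables and in the A9up table, and the 5 described genes most like the members. Zinc finger proteins with an AN1 domain were left out of the AN1 regulators. Alternatives were pseudocounts of 0.1 and 1, leaving out each member, the other NT seed library or the mean of both, listed lengths, a minimum FPKM of 1, a log2 threshold of 1 and KEGG orthology alone. Sums by pair and lists by description alone were added after the data were seen.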

Additional observations from a re-analysis of the deposited data

How the results depend on the processing

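No fold or ratio of the CHS genes changed direction under the alternatives tried. No paired analysis was possible because each condition had 1 library in each comparison and the labels carry no replicate numbers. The summed log2 fold in DS10:A9 seeds, 1.29, became 0.78 with the other NT seed library and 1.01 with the mean of both, and that in DS10:A4a seeds, -1.79, became -1.28 and -1.56. The NT seeds over NT seedlings ratio, 2.80, became 3.31 with the other NT seed library, 2.27 without gene_5201, 2.42 without gene_77491 and 3.34 without gene_39003. The summed log2 fold in 35S:A9 seedlings, 3.59, became 3.12 without gene_77491 and 4.08 without gene_39003. By pair, chosen after seeing the data, gene_5201 with gene_77491 gave 4.65 in 35S:A9 seedlings and 3.96 for NT seeds over seedlings, and gene_39003 with gene_48293 gave 2.24 and 1.08, and 0.87 in DS10:A9 seeds. Single genes moved beyond their counting intervals in 12 of 40 recomputed folds, 6 of them with the other NT seed library.

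The A9up table held 48 flavonoid genes, all higher in both organs by construction, and annotations differ between its seed and seedling rows. The annotation of the seed rows found 38, or 13 with an FPKM of at least 1 in seeds and 25 by description alone. That of the seedling rows found 43, or 22 by description alone. These counts therefore do not compare the organs. In DS10:A4a seeds, 53 higher and 69 lower became 12 and 20 with an FPKM of at least 1 and 14 and 35 by description alone, and 35 and 53 at a log2 fold of at least 1 or at most -1. The balance of higher to lower genes with A4a turned in 5 cases among the single steps. These were cinnamate 4-hydroxylase (1 to 2 became 1 to 0) and 4-coumarate--CoA ligase (18 to 15 became 11 to 13) at that fold, flavanone 3-hydroxylase (6 to 9 became 3 to 1) and the anthocyanidin and leucoanthocyanidin reductases (8 to 4 became 1 to 2) at an FPKM of at least 1, and leucoanthocyanidin dioxygenase (4 to 2 became 0 to 1) by description. Of the 5 genes most like CHS, 4 were shared with the ranking on log2(FPKM + 0.1). The main limits are 1 library per condition, few fragments in NT seedlings and reads shared between copies.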
